A study of Mus musculus with 2 samples.

Results

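The 10 immediate-early genes followed here from quiescent to activated muscle stem cells were the Egr genes Egr1, Egr2 and Egr3, the nuclear receptor gene Nr4a1, the Krüppel-like factor genes Klf2, Klf4 and Klf6, and Ier2, Btg2 and Zfp36. They were chosen by name, and each of the 10 symbols was found in 1 row of both matrices, out of 32285 features. Muscle stem cells, or satellite cells (SCs), lie on the muscle fibre and were sorted here by the fluorescence of a reporter. Both groups came from tibialis anterior (TA) muscle of Pax7 CreERT2/+ ;Rosa26 mTmG/+ mice, 8 weeks old, in which a Cre recombinase driven from the Pax7 locus and switched on by tamoxifen turns the reporter from red to green in Pax7-expressing cells and their descendants. QSCs, the quiescent group, were taken from uninjured muscle, and ASCs, the activated group, 1.5 days after cardiotoxin, which destroys muscle fibres. Each group was 1 library of droplet-based 3′ single-cell RNA sequencing, so the group and the library cannot be told apart and no difference has a replicate check. Each library pooled the cells of several mice, which cannot be told apart in the counts. Both groups went through dispase and collagenase digestion before sorting, and all levels are those after that step.

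Immediate-early genes are transcribed within minutes of a stimulus such as a growth factor, a stress or mechanical handling, without the need for new protein, because the factors that switch them on are already in the cell. Serum response factor, with its Elk and Mrtf partners, binds the CArG box in many of their promoters, and Creb1 binds the cyclic AMP response element, TGACGTCA. Most of their transcripts are short-lived, so their level follows recent transcription, and enzymatic dissociation of a tissue is known to raise genes of this kind. The part of digestion in the levels below was not tested.

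To show the promoter letters that such factors are known to read, the RefSeq promoters (GRCm38.p6, 250 bases before to 50 after the start) were searched on both strands for 4 motifs. An entry was found for 7 of the 10 genes, 5 entries for Egr2 and 1 each for Nr4a1, Btg2, Zfp36, Klf2, Klf4 and Klf6. Of the 5 Egr2 entries only 1 was used, which matched the start of 3 of 7 protein-coding transcripts, and none matched more. The shares of all promoters given below count every entry, 32851 for 27025 genes. A CArG box lay in the promoters of Egr2 and Zfp36 (2 of 7, against 1.63% of 32851 promoters), TGACGTCA in that of Btg2 (1 of 7, against 1.79%), and GCGNGGGCG, the sequence bound by the Egr proteins themselves, in those of Nr4a1, Btg2, Zfp36, Klf2 and Klf4 (5 of 7, against 5.55%). The AP-1 site TGANTCA was in none of the 7 (7.81% of all promoters), and none of the 4 motifs was in the Klf6 promoter. A match describes letters in the window, not a bound site. The stretches that hold the matches are printed below, 5′ to 3′ on the strand of the gene, with the motif in capitals, so that the promoters with a CArG box, a cyclic AMP response element or an Egr sequence can be compared. They are chr10:67537772-67537831 (+ strand) for Egr2, chr15:101266760-101266819 (+) for Nr4a1, chr1:134079270-134079329 (- strand) for Btg2, chr7:28379267-28379296 (-) for Zfp36, chr8:72318837-72318896 (+) for Klf2 and chr4:55532644-55532703 (-) for Klf4. The Zfp36 stretch, from -68 to -39 of the RefSeq start, lies inside an exon of the GENCODE M21 annotation. Zfp36 holds a further GCGNGGGCG match outside it, at -105 to -97.
Egr2, CArG box: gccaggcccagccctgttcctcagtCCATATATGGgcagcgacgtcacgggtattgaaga
Zfp36, CArG box: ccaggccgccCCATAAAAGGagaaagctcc
Btg2, TGACGTCA and GCGNGGGCG: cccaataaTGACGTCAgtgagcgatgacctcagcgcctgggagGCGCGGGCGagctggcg
Nr4a1, GCGNGGGCG on the other strand: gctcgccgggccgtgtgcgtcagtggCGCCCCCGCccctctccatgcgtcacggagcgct
Klf2, GCGNGGGCG: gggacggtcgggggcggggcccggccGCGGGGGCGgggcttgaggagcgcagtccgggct
Klf4, GCGNGGGCG at 2 places on the other strand: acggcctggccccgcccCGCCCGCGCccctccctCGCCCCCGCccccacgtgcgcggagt

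After filtering, 516 QSC and 1468 ASC barcodes were kept, and those with fewer than 500 genes or more than 10% mitochondrial UMIs (unique molecular identifiers, 1 per captured transcript) were left out. The libraries stood apart in other ways than the label. Median depth was 2155 UMIs per QSC barcode and 3502 per ASC barcode, and the median mitochondrial share 4.44% and 0.297%. Barcodes were put into 4 classes from marker lists that hold none of the 10 genes. Fibre-gene-high barcodes took at least 5% of their UMIs from 10 genes of contractile and other fibre proteins, immune-marker and stromal/vascular-marker barcodes at least 0.5% from 15 immune or 13 stromal and vascular markers, and fibre-low barcodes were the rest. Fibre-low barcodes numbered 377 for QSCs and 410 for ASCs, fibre-gene-high 104 and 950, immune-marker 16 and 104, and stromal/vascular-marker 19 and 4. The class is a range and not a cell type, and 3 QSC and 51 ASC barcodes lay near the 5% limit (4% to 6.25%). In the fibre-low class the 9 muscle stem cell markers were all detected in both libraries. All 9 were also detected in ASC fibre-gene-high barcodes, where they made up 0.477% of UMIs, against 0.277% in ASC fibre-low barcodes. Des, 1 of the 9, was at 4538 CPM (counts per 1000000 UMIs) in the former and 1250 CPM in the latter. Pax7, the defining gene of satellite cells, stood in fibre-low barcodes at 213 CPM in QSCs and 29.5 CPM in ASCs. Myog, a gene of committed muscle cells, stood there at 33.9 and 949 CPM. Of the 29 QSC Myog UMIs, 28 came from 1 barcode. The immune list made up 0.00865% of fibre-low UMIs in QSCs, with Cd52, Plac8, Ly6c2 and Retnlg at 0, and 0.0180% in ASCs, with no marker at 0. Haemoglobin transcripts, which such cells do not make, made up 0.0131% and 0.170%. Of the deposited barcode sequences, 4 were found in both libraries, and leaving them out did not move the summed level of the 10 genes (log2 ratio -2.48 with and without them). The study's methods set the mitochondrial limit at 1%, under which 1 QSC fibre-low barcode would remain, with 2 UMIs of the 10 genes, so that limit could not serve here.

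All 10 genes were lower in the ASC library, and all 10 by at least 2-fold. Across the 11189 genes with at least 20 UMIs in both libraries together, 23.8% were lower by at least 2-fold. Together the 10 genes made up 5737 CPM in QSCs (95% interval 5600 to 5876, 6667 UMIs) and 1032 CPM in ASCs (1011 to 1053, 9179 UMIs), a 5.56-fold difference (5.39 to 5.74), or a log2 ratio of -2.48. Among fibre-low barcodes of like depth, 1500 to 4000 UMIs, the log2 ratio of the sum was smaller, at -0.997. Intervals are exact and cover counting error only. The 10 genes did not move alike. Egr1 differed most, by 10.6-fold, and Klf6 least, by 2.31-fold. The median gene with at least 20 UMIs in each library had a log2 ratio of -0.25, and relative to it the 10 genes lay from -3.16 (Egr1) to -0.96 (Klf6). TMM scaling, which corrects for the composition of the libraries, raised every log2 ratio by 0.31, and Klf6 was then at -0.90, short of 2-fold (17.4% of genes were lower by 2-fold with this scaling). Under the 1% mitochondrial limit, which leaves 68 QSC UMIs of the 10 genes, 66 of them in fibre-gene-high barcodes, the log2 ratio of the sum was -0.029, and Btg2, Zfp36, Klf2 and Klf6 turned direction.

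**Figure D1:**
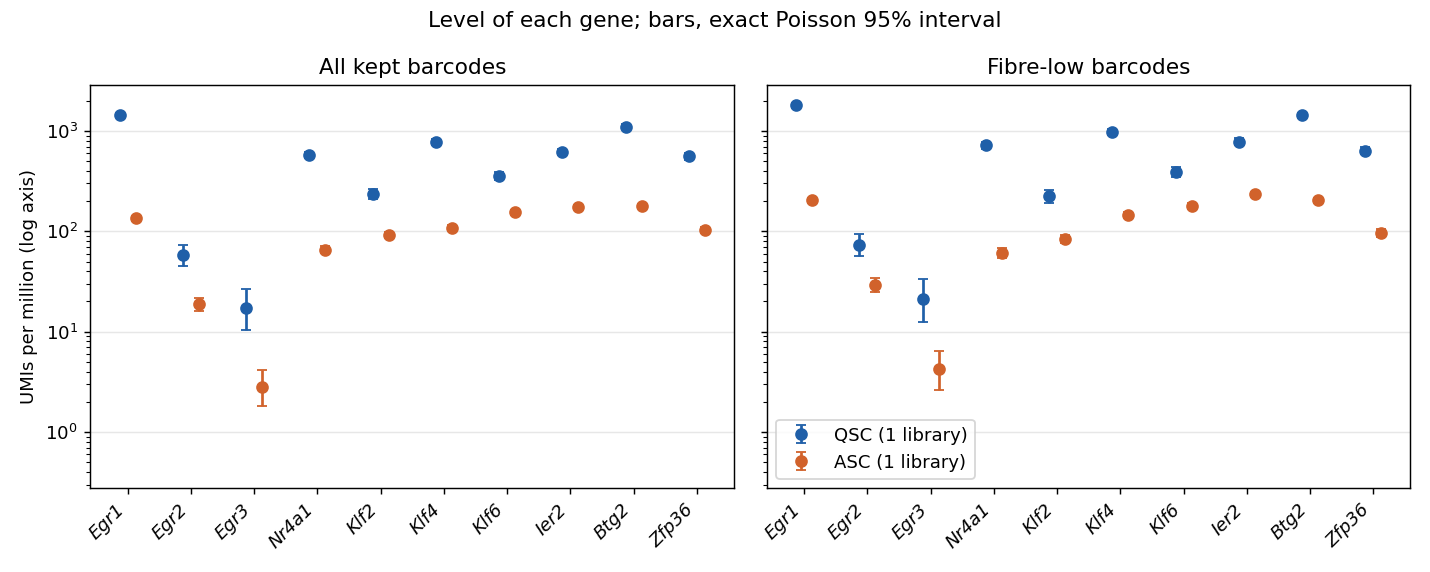
Level of each gene in CPM (log axis) in the QSC and ASC libraries, over all kept barcodes and over fibre-low barcodes, with exact Poisson 95% intervals; each point is 1 library. All 10 genes lie lower in ASCs in both panels, and Klf6 has the smallest gap.

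The Egr genes encode zinc-finger transcription factors that bind GC-rich promoters. Egr1 (ENSMUSG00000038418, chr18:34859823-34864984, GRCm38, + strand) stood at 1437 CPM in QSCs (1670 UMIs) and 135 CPM in ASCs (1204 UMIs) over all kept barcodes. In fibre-low barcodes, where fibre-rich, immune and stromal barcodes no longer weigh on the value, all 10 genes were again lower by at least 2-fold (23.7% of 9968 genes were), and Egr1 was at 1797 CPM (95% interval 1708 to 1889) against 204 CPM (192 to 217), 8.80-fold apart. Only 1.42% of the 11189 genes had a lower log2 ratio than Egr1 over all kept barcodes. Egr2 (ENSMUSG00000037868, chr10:67535475-67542188, +), which is known for its role in myelination, was much rarer in UMIs, with 63 in QSC and 154 in ASC fibre-low barcodes. Its level was 73.6 CPM (56.6 to 94.2) in QSCs and 29.5 CPM (25 to 34.5) in ASCs, a log2 ratio of -1.32 (-1.75 to -0.88). Egr3 (ENSMUSG00000033730, chr14:70077203-70082614, +) rested on 18 and 22 UMIs in the fibre-low class, and its log2 ratio of -2.32 had a wide interval, from -3.29 to -1.34. The Egr2 interval did not reach that of Egr1 (-3.25 to -3.02), while the Egr3 interval overlapped both. At 1500 to 4000 UMIs this separation was lost, with Egr2 at -0.80 (-2.0 to 0.22) and Egr1 at -1.26 (-1.51 to -1.02).

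Nr4a1 (ENSMUSG00000023034, chr15:101254269-101274795, +) encodes Nur77, an orphan nuclear receptor that needs no known natural ligand. In fibre-low barcodes it showed the largest difference of the 10 genes, from 724 CPM in QSCs (669 to 784) to 61.0 CPM in ASCs (54.5 to 68.1), or 11.9-fold. Over all kept barcodes the difference was 8.79-fold. Of its ASC UMIs, 54.5% came from fibre-low barcodes, 29.9% from immune-marker barcodes and 15.4% from fibre-gene-high barcodes, whereas 92.3% of its QSC UMIs were fibre-low.

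Krüppel-like factors bind GC-rich and CACCC sequences, and Klf4 is widely known as a reprogramming factor, Klf2 as a gene of quiescent endothelium and lymphocytes. Klf4 (ENSMUSG00000003032, chr4:55527143-55532466, -) was at 987 CPM (922 to 1056) in QSC and 145 CPM (134 to 155) in ASC fibre-low barcodes, 6.83-fold apart. Klf2 (ENSMUSG00000055148, chr8:72319033-72321656, +) was at 224 CPM (194 to 258) and 83.6 CPM (75.9 to 91.8), 2.68-fold apart. Klf6 (ENSMUSG00000000078, chr13:5861482-5870394, +) was at 391 CPM (351 to 436) and 178 CPM (167 to 190), 2.20-fold apart. The interval of Klf4 (log2 ratio -2.92 to -2.63) lay apart from those of Klf2 (-1.67 to -1.17) and Klf6 (-1.32 to -0.95), which overlapped each other. At 1500 to 4000 UMIs all 3 overlapped, with Klf4 at -1.04 (-1.35 to -0.74), Klf2 at -0.51 (-1.12 to 0.05) and Klf6 at -0.81 (-1.29 to -0.36).

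The remaining 3 genes do not encode DNA-binding activators of the same kind. Btg2 (ENSMUSG00000020423, chr1:134075170-134079120, -) encodes an antiproliferative protein that recruits deadenylases to transcripts. It was at 1435 CPM (1356 to 1517) in QSC and 203 CPM (191 to 216) in ASC fibre-low barcodes, 7.06-fold apart. Zfp36 (ENSMUSG00000044786, chr7:28376784-28380253, -) encodes tristetraprolin, which binds AU-rich elements and hastens the decay of transcripts. It was at 637 CPM (584 to 693) and 96.4 CPM (88.2 to 105), 6.61-fold apart. The annotation puts the antisense gene Gm44710, which is also among the counted features, over Zfp36, and whether strand was used in counting is not given in the sources used here, so this value is less certain. Ier2 (ENSMUSG00000053560, chr8:84661331-84662852, -), a nuclear regulator of transcription, was at 783 CPM (725 to 844) and 234 CPM (221 to 248), 3.34-fold apart.

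Depth differed between the libraries within the fibre-low class, with a median of 2219 UMIs per barcode in QSCs and 8401 in ASCs, and the levels moved with it in ASCs. When the fibre-low barcodes of each library were split into terciles by UMIs, the 10 genes summed to 7051, 6942 and 7187 CPM in QSCs from the shallowest to the deepest tercile. In ASCs they summed to 3842 CPM in the shallowest tercile (861 to 5219 UMIs), 2040 CPM in the middle one (5222 to 13890 UMIs) and 602 CPM in the deepest (13898 to 47639 UMIs). Within QSCs Btg2 was higher in deeper barcodes (1178, 1253 and 1712 CPM) and Klf2 lower (285, 250 and 172 CPM). In ASCs Btg2 moved most steeply among the genes with at least 100 UMIs per tercile, at 820, 384 and 55.6 CPM, followed by Klf4 at 513, 254 and 55.9 CPM and Egr1 at 701, 336 and 90.2 CPM. Klf6 moved least, at 252, 225 and 151 CPM. Other values moved over the ASC terciles as well. Pax7 was at 100, 45.3 and 14.2 CPM, Myog at 390, 1687 and 772 CPM, Top2a, a gene of dividing cells, at 26.7, 64.2 and 87.7 CPM, and the stromal/vascular list at 211, 84.7 and 28.1 CPM. Their part in the pattern was not tested.

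**Figure D2:**
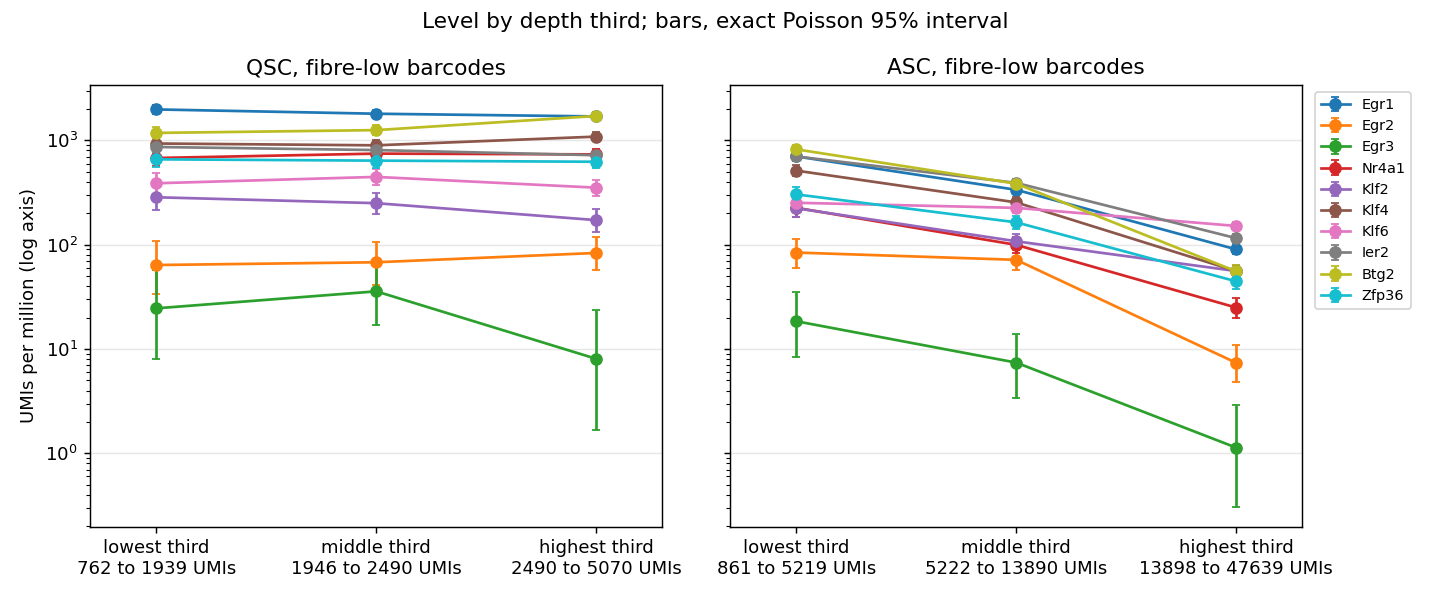
Level of each gene in CPM (log axis) in terciles of fibre-low barcodes ordered by UMIs per barcode, with exact Poisson 95% intervals. The QSC sum is nearly level (7051, 6942 and 7187 CPM), with the Btg2 line rising and the Klf2 line falling, and the ASC sum slopes down (3842, 2040 and 602 CPM), with Klf6 falling less than Btg2, Klf4 and Egr1.

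In the range of depth that both libraries share, the differences were smaller. Between 1500 and 4000 UMIs there were 336 QSC and 70 ASC fibre-low barcodes, with medians of 2263 and 3112 UMIs. The 10 genes summed to 7201 CPM in QSCs and 3607 CPM in ASCs there, a log2 ratio of -0.997 (-1.11 to -0.89) in place of -2.51 over all fibre-low barcodes. Each of the 10 was still lower in ASCs. Of the 9 genes with at least 20 UMIs, which leaves out Egr3, 3 were past 2-fold: Nr4a1 (742 against 215 CPM, log2 ratio -1.79), Egr1 (1821 against 760 CPM, -1.26) and Klf4 (1011 against 492 CPM, -1.04). Over all genes tested at this depth, 16.5% were lower by at least 2-fold, and the median gene was at -0.12. Btg2 was at -0.86, Zfp36 at -0.95, Klf6 at -0.81 and Ier2 at -0.50, with intervals that excluded 0. For Egr2, Egr3 and Klf2 the interval included 0. Pax7 was at 219 CPM in the QSC and 90.8 CPM in the ASC barcodes of this range, and Myog at 1.27 and 621 CPM, so at like depth the barcodes of the 2 libraries still differed in these markers. The median mitochondrial share also differed there, at 4.88% in QSCs and 2.69% in ASCs, and its part was not tested.

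Counted as UMIs per fibre-low barcode and not as a share of UMIs, the 10 genes together differed little, with 16.1 UMIs per barcode in QSCs and 15.8 in ASCs, at the unequal depths given above. Egr1 (4.08 against 2.60) and Nr4a1 (1.65 against 0.78) were fewer per ASC barcode, as were Btg2 (3.26 against 2.59), Klf4 (2.24 against 1.84) and Zfp36 (1.45 against 1.23). Ier2 (1.78 against 2.99), Klf6 (0.89 against 2.27), Klf2 (0.51 against 1.07) and Egr2 (0.17 against 0.38) were more numerous per ASC barcode. The direction per barcode therefore depended on the gene, and droplet counts do not give the number of transcripts in a cell.

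Single barcodes were compared after each was thinned at random to 1200 UMIs, which left 370 QSC and 405 ASC fibre-low barcodes and dropped 7 and 5. A QSC barcode held UMIs of a median of 4 of the 10 genes and an ASC barcode of 1. At least 3 of the genes were detected in 319 of 370 QSC barcodes (86.2%, 95% interval 82.3 to 89.6) and in 97 of 405 ASC barcodes (24.0%, 19.9 to 28.4). None was detected in 1.08% of QSC and 37.8% of ASC barcodes. Without thinning, at least 3 were detected in 92.8% and 75.6%. Egr1 was found in 84.6% of QSC barcodes (80.5 to 88.1) and 26.7% of ASC barcodes (22.4 to 31.3) at equal depth. As a level of reference, Egr1 was found in 7.78% of 90 QSC and 1.74% of 863 ASC fibre-gene-high barcodes, whose median depth before thinning was 1635 and 2692 UMIs. Egr3 was found in 7 QSC and 1 ASC fibre-low barcodes, too few to compare. In full counts, without thinning, the UMIs of some genes were also spread less evenly in the ASC library. Fibre-low barcodes ranged from 861 to 47639 UMIs in ASCs and from 762 to 5070 in QSCs, and the part of depth in this spread was not tested. The 10% of fibre-low barcodes with most UMIs of a gene held 44.4% of the Egr1 UMIs in ASCs against 26.2% in QSCs, and 54.7% of the Btg2 UMIs against 35.4%. The share was nearer for Klf6 (51.9% against 52.2%), Klf2 (64.1% against 66.1%) and Egr2 (73.4% against 77.8%), which lay slightly lower in ASCs. This share also depends on how many barcodes hold a UMI of the gene, and that part was not tested. Egr2 had a UMI in 52 of 377 QSC and 82 of 410 ASC barcodes, so its share could not show how evenly it was spread. A single ASC barcode of 5218 UMIs held 220 UMIs of the 10 genes, 85 of them from Ier2 and 61 from Btg2. Without it the summed log2 ratio in fibre-low barcodes was -2.56.

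**Figure D3:**
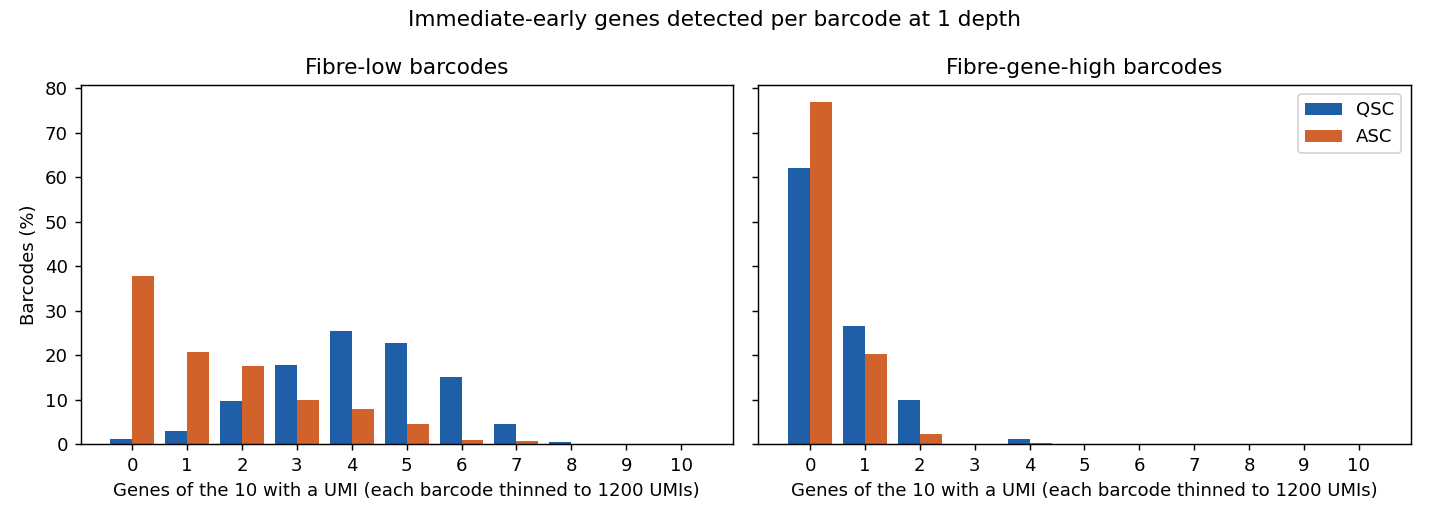
Percent of barcodes by the number of the 10 genes with a UMI, after thinning each barcode to 1200 UMIs, in fibre-low and fibre-gene-high barcodes of both libraries. QSC fibre-low barcodes centre on 4 genes, and ASC fibre-low barcodes on 0 and 1, with 24.0% at 3 or more.

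In fibre-gene-high barcodes the 10 genes were scarce in both libraries, at 504 CPM in QSCs (108 UMIs) and 270 CPM in ASCs (831 UMIs), or 7.12% and 21.8% of the fibre-low level of the same library. Of the 8 genes tested there, 6 were lower in ASCs by at least 2-fold, where 10.5% of 6487 genes were. Btg2 (74.6 against 95.9 CPM, log2 ratio 0.36, interval -0.36 to 1.19) and Klf2 (23.3 against 39.0 CPM, 0.74, -0.52 to 2.39) were the exceptions, and the depth of 16 and 5 QSC UMIs could not show a difference for them. With the class set from 2% they turned direction, Btg2 to -2.48 and Klf2 to -1.88. Egr2 had 0 UMIs in QSC barcodes of this class and 2 in ASC barcodes, and Egr3 had 0 and 1, so no ratio is given. In ASCs the level of fibre-gene-high barcodes was uneven across genes when set against the fibre-low level. Nr4a1 reached 47.9% (37.5 to 60.8), Btg2 47.2% (41.3 to 53.7) and Klf2 46.7% (37.8 to 57.2), while the other 7 genes lay between 2.21% (Egr2) and 16.8% (Ier2). The 3 intervals lay apart from that of Ier2 (13.8 to 20.3). In QSCs Btg2 stood at 5.20% of the fibre-low level (2.96 to 8.48).

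Immune-marker barcodes, which were 16 in QSCs and 104 in ASCs, showed another pattern. Their make-up differed between the libraries. Of the 15 immune markers, Plac8, Ly6c2, Csf3r and Retnlg were at 0 in QSCs, and all 15 were detected in ASCs. Median depth was 2024.5 and 5530 UMIs, and the median mitochondrial share 3.91% and 1.22%. The part of these differences in the ratios was not tested. The sum was 7101 CPM in QSCs (232 UMIs) and 3153 CPM in ASCs (1820 UMIs). Of the 8 genes tested, 4 were lower in ASCs by at least 2-fold, against 17.7% of 3361 genes: Egr1 (1255 against 111 CPM), Zfp36 (1990 against 636 CPM), Klf6 (1286 against 624 CPM) and Btg2 (796 against 395 CPM). For Nr4a1, Ier2, Klf2 and Klf4 the interval of the ratio included 0, with log2 ratios from -0.61 (Klf4) to 0.31 (Klf2), and none of the 8 was higher by 2-fold (27.6% of genes were). TMM scaling moves the ratios of this class by 0.74, and Nr4a1 and Klf4 are then just above 0 and of the 4 only Egr1 stays past 2-fold. Zfp36 was higher in immune-marker than in fibre-low barcodes of the same library, at 312% (238 to 405) of the fibre-low level in QSCs and 660% (575 to 756) in ASCs, and Klf6 at 328% and 351%. In ASCs Nr4a1 and Klf2 were also higher there, at 497% and 499%, whereas Egr1 was at 54.3% (41.5 to 69.9). Immune-marker barcodes, 7.08% of the ASC library, thus held 40.0% of its Zfp36 UMIs, 29.9% of its Nr4a1 UMIs and 5.32% of its Egr1 UMIs. In the 19 stromal/vascular-marker barcodes of the QSC library Klf2 was at 1116 CPM, 497% of the fibre-low level (370 to 661), and these held 24.1% of the QSC Klf2 UMIs.

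**Figure D4:**
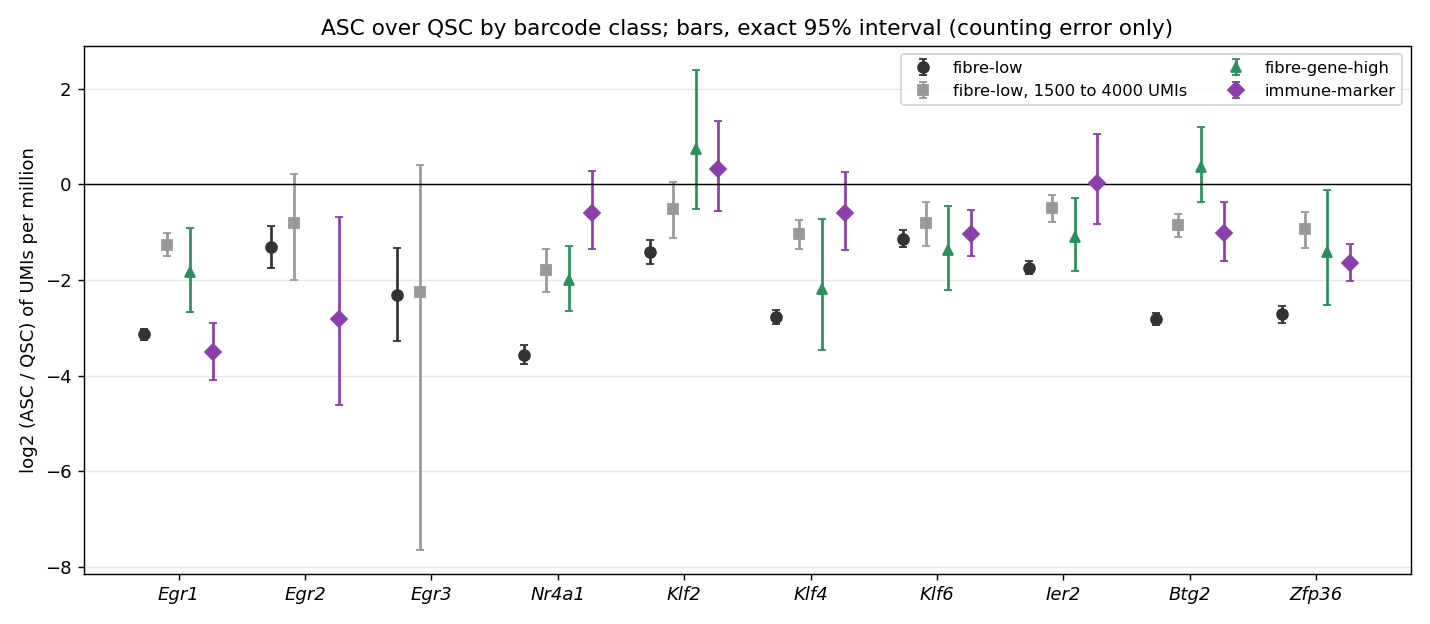
Log2 ratio of ASC over QSC in CPM for each gene by class of barcode, with exact 95% intervals; points below 0 are lower in ASCs, and genes with 0 UMIs in a library are not drawn. Fibre-low ratios all lie below -1, those at 1500 to 4000 UMIs lie nearer 0, and Btg2 and Klf2 in fibre-gene-high and Ier2 and Klf2 in immune-marker barcodes lie at or above 0.

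Within the ASC fibre-low class, levels differed with myogenic markers that were read in the thinned counts. In the 49 barcodes with Pax7 or Myf5, genes of stem cells and early myoblasts, and without Myog, the 10 genes summed to 2450 CPM (2312 to 2595), in the 89 barcodes with Myog to 1466 CPM (1395 to 1540), and in the 267 barcodes with none of the 3 to 1014 CPM (981 to 1047). Median depth was 5224, 10772 and 8482 UMIs in these barcodes, and its part in the difference was not tested. Klf2 went the other way, at 64.8 CPM with Pax7 or Myf5 (31 UMIs) and 134 CPM with Myog (145 UMIs), a log2 ratio of 1.04 (0.48 to 1.65). The intervals here cover counting error of summed UMIs and not the spread between barcodes. Over all ASC fibre-low barcodes, 1 barcode held 32 of the 437 Klf2 UMIs, so the interval does not settle the direction for Klf2. Klf4 (309 against 135 CPM, -1.20) and Zfp36 (238 against 108 CPM, -1.14) were lower with Myog. Egr2 and Egr3 had intervals that included 0. In QSCs the 206 barcodes with Pax7 or Myf5 and the 163 with none of the 3 were at 6874 CPM (6639 to 7115) and 7377 CPM (7105 to 7656), and only 1 QSC barcode had Myog.

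Whether the genes were found together in the same barcodes was described by Pearson's r of log-normalised counts, with no test, since the barcodes of a group share a library and vary in depth. Across 377 QSC fibre-low barcodes the 45 pairs had a median r of 0.05 (-0.09 to 0.31), highest for Egr1 with Zfp36. Across 410 ASC fibre-low barcodes the median was 0.26 (0.04 to 0.62), highest for Egr1 with Btg2. After thinning to 1200 UMIs the medians were 0.04 and 0.13, and the Egr1 and Btg2 pair was at 0.03 in QSCs and 0.44 in ASCs. Of the 100 thinned ASC barcodes with Btg2 and the 108 with Egr1, 57 had both, where 26.7 would if the 2 genes were independent. In thinned QSC barcodes 216 had both, where 217 would. The ASC levels fell with the depth before thinning, and its part in these values was not tested. In thinned ASC counts Zfp36 (0.37) and Ier2 (0.35) also went with Egr1, and the 3 Klf genes less so (0.12 to 0.16). Values with Egr1 were also low for Nr4a1 (0.14), Egr2 (0.17) and Egr3 (0.06, found in 1 barcode).

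**Figure D5:**
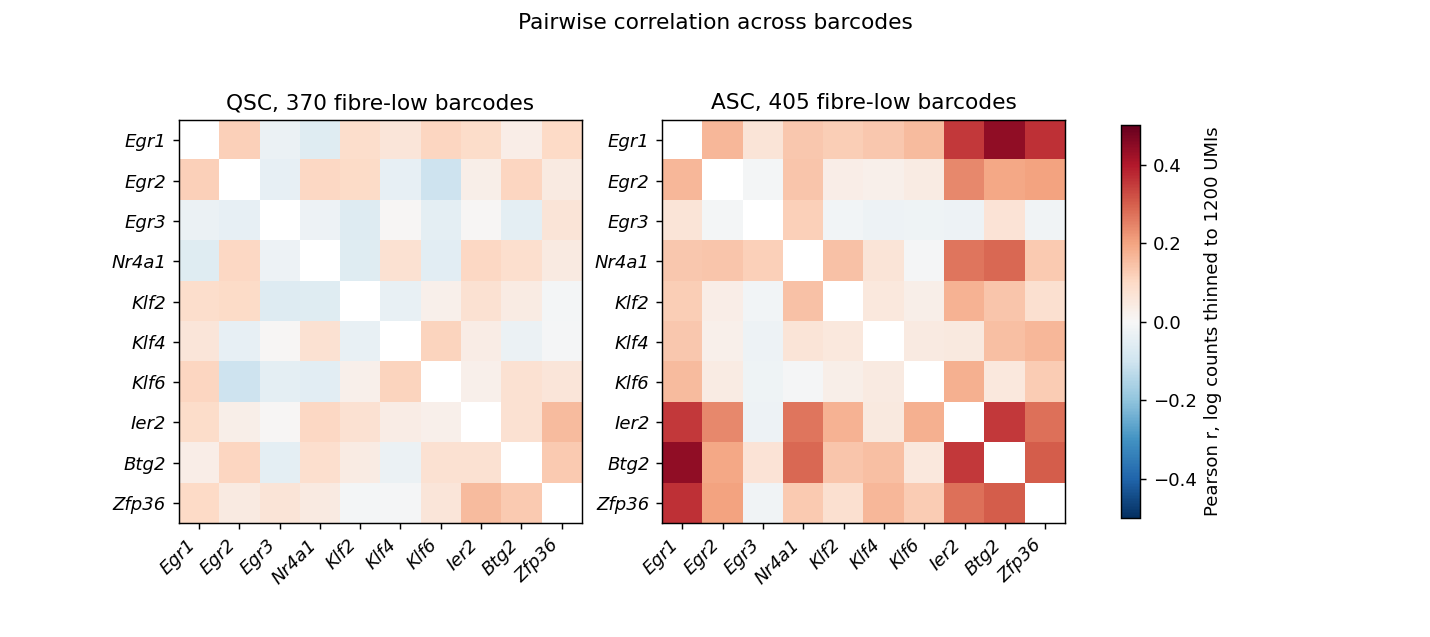
Pearson's r between each pair of the 10 genes across fibre-low barcodes of each library, from log counts thinned to 1200 UMIs; red is above 0 and blue below 0. QSC values lie between -0.10 and 0.16, and ASC values reach 0.44 for Egr1 with Btg2.

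Among 2561 other genes detected in at least 10% of QSC fibre-low barcodes, those most like the sum of the 10 genes over these 377 barcodes were Junb (r = 0.44), Fosb (0.41), Fos (0.40), Jund (0.39) and Jun (0.35), all subunits of AP-1, followed by Socs3 (0.32), Mt2 (0.30), Id3 (0.26) and Mt1 (0.23). In the ASC fibre-low barcodes these 9 genes had r from 0.40 (Mt1 and Mt2) to 0.77 (Junb). These values come from counts that were not thinned. Over the ASC depth terciles Junb fell as the 10 genes did, at 2237, 1213 and 341 CPM, and the part of depth in r was not tested. Taken singly in QSCs, Egr1, Ier2 and Zfp36 were most like Fos (0.38, 0.37 and 0.32), Nr4a1 and Btg2 most like Jund (0.27 and 0.38) and Klf4 most like Fosb (0.34). Klf2 was most like Tcf7l2 (0.28), Klf6 most like Apobec2 (0.21) and Egr2 most like Carhsp1 (0.23), and none of these 3 is an AP-1 gene. Klf2, Klf6 and Egr2 had a UMI in 27.3%, 40.6% and 13.8% of these barcodes. Each r is the highest over all genes compared, and how high it would reach by chance was not tested.

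Genes of the same response and of the pathway were read over all kept barcodes, against the 23.8% lower and 15.8% higher by at least 2-fold among all genes. Of 8 AP-1 genes tested, 6 were lower, most of all Fosb (log2 ratio -4.42) and Fos (-3.32), and 2 were higher, Fosl1 (1 UMI against 326, log2 ratio 5.41, interval 2.92 to 10.7) and Batf (1 against 23 UMIs, 1.59, -1.04 to 6.95). Of the 23 ASC Batf UMIs, 19 lay in immune-marker barcodes, and in fibre-low barcodes there were 1 and 2 Batf UMIs. The median of the 8 was -2.85, that of the 10 genes -2.53, and that of all genes tested -0.13. Of 32 other immediate-early genes 20 were lower and 1 was higher, with a median of -1.54. Sik1 (-4.24), a kinase gene, and Ccn2 (-3.77), a matrix-associated growth factor gene, were lowest. Dusp2 (2.87, interval 1.30 to 5.16, 3 against 168 UMIs) and Dusp5 (0.99), both phosphatases of MAP kinases, were highest. Of the 168 ASC Dusp2 UMIs, 100 lay in immune-marker and 28 in fibre-low barcodes, where its log2 ratio was 1.20 (-0.79 to 4.31) and the list had 24 of 32 genes lower and none higher (23.7% of genes were lower and 17.9% higher). Relatives of the 10 genes in the Klf, Btg, Tob, Zfp36, Nr4a, Egr and Ier families, some of which are also among the other immediate-early genes, were lower in 12 of 19 cases, with a median of -1.35. Klf15 (-3.17) and Zfp36l1 (-2.86) were lowest and Klf5 (1.88) and Ier5 (0.30) highest. Regulators and partners of the 10 genes differed less over all kept barcodes. Of 20 tested, 3 were lower and none was higher by 2-fold, with a median of -0.03. Elk4 (-1.19) and Mrtfb (-1.05), which act with serum response factor, were lowest, and Mrtfa (0.97, interval -0.67 to 3.30) and Nab1 (0.93), a corepressor of the Egr proteins, were highest. Heat shock genes, another class that responds to stress, had 1 of 11 lower and 5 higher, with a median of 0.81. Dnajb1 (-1.42) and Bag3 (-0.88) were lowest and Hspb1 (3.15) and Hspe1 (1.88) highest. Of the 23234 ASC Hspb1 UMIs, 18652 lay in fibre-gene-high barcodes. In fibre-low barcodes the Hspb1 log2 ratio was 1.38 (1.20 to 1.57), below that of Hspe1 (2.29), and the list had 2 of 11 genes lower and 6 higher. At 1500 to 4000 UMIs, 6 of 6 AP-1 genes, 11 of 29 other immediate-early genes and 10 of 17 relatives in fibre-low barcodes were lower by at least 2-fold, against 16.5% of all genes. Fosl1, higher in ASCs over all fibre-low barcodes (1 against 295 UMIs, log2 ratio 5.59), had too few UMIs at this depth to be among the 6. Regulators and partners had 4 of 11 lower and 2 higher at this depth, with a median of -0.31. The share lower was thus no smaller than for the 10 genes themselves (3 of 9, median -0.85). Heat shock genes had 1 of 10 lower and 3 higher, with a median of 0.41, where 7.13% of all genes were higher.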

How the data were processed

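Single-cell libraries of QSCs and ASCs (1 each) were read from the deposited matrices, in which, per the file headers, the authors had made whole-number UMI counts per gene and barcode with Cell Ranger 6.0.2. The submitters' processing notes name Cell Ranger 7.1.0 and mm10. Use of strand is not given in the sources used here. Barcodes with at least 500 genes and at most 10% mitochondrial UMIs were kept, and no doublets were removed, so barcodes of very high UMI number may hold more than 1 cell. Counts were summed per library or class and scaled to CPM with exact Poisson intervals. Ratios carry exact conditional binomial intervals and shares Clopper-Pearson intervals, at 95%. With 1 library per group no p-value was computed, and calls are a 2-fold difference with 0.5 added to each count. List medians use the same addition. Thinning drew 1200 UMIs per barcode. Correlations use log counts per 10000. TMM factors came from edgeR 4.0.16, and other steps from Python 3.11.15 and scipy 1.17.1, with ratios tested on simulated data. Positions come from GENCODE M21 (32158 of 32285 identifiers matched), promoters from RefSeq. All 10 genes are named, from each list the 2 lowest and 2 highest ratios, and the 10 most alike genes, of which 1 is not reported here. Members, classes and lists were chosen with earlier results of these data known. The alternatives at 1500 to 4000 UMIs and without 1 ASC barcode were added after seeing the data.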

Additional observations from a re-analysis of the deposited data

Results flagged for a closer look

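Barcodes that the filter left out also held these genes, in data that the comparisons do not use. The 250 QSC barcodes left out, with a median of 655.5 UMIs, had 195 UMIs of the 10 genes, or 1060 CPM (917 to 1220), against 5737 CPM in kept barcodes. The 182 ASC barcodes left out, with a median of 717.5 UMIs, had 79 UMIs, or 482 CPM (381 to 600), against 1032 CPM. Both were above the 16.3 and 18.3 CPM that a count of 3 would give. The order of the libraries was that of the kept barcodes.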

How the results depend on the processing

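The 10 genes summed had a log2 ratio of -2.48 over all kept barcodes. It was -2.35 with a mitochondrial limit of 5%, -2.32 over every deposited barcode, -2.52 with at least 1000 genes, -2.17 with TMM scaling and -2.26 without the 5% of barcodes with most UMIs. With a mitochondrial limit of 1% it was -0.029, from 68 QSC UMIs of which 66 lay in fibre-gene-high barcodes, and Btg2 (0.67), Zfp36 (0.11), Klf2 (1.21) and Klf6 (0.99) were then above 0. In fibre-low barcodes (-2.51) the sum was -2.33 with fibre-gene-high set from 2%, -2.20 with TMM scaling, -0.997 at 1500 to 4000 UMIs, and 0.47 at the 1% mitochondrial limit, where 1 QSC barcode with 2 UMIs remains. In fibre-gene-high barcodes (-0.90) it was -2.69 with the class set from 2%, which brings the QSC UMIs of the 10 genes from 108 to 2088. In immune-marker barcodes (-1.17) it was -0.43 with TMM scaling, and no value could be had at the 1% limit, which leaves no QSC barcode.

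The share of fibre-low barcodes with at least 3 of the genes, 86.2% in QSCs and 24.0% in ASCs, was 68.8% and 18.3% when thinned to 800 UMIs, 96.7% and 38.7% at 2000 UMIs, and 92.8% and 75.6% without thinning. In barcodes of 1500 to 4000 UMIs it was 86.9% and 32.9%. The count of genes lower by at least 2-fold, 10 of 10, was 9 with TMM scaling, where 17.4% of all genes were lower, and 9 with at least 100 UMIs, which 9 of the 10 reached and where 16.3% were. The other settings kept the summed values within their main interval, and the median correlation in QSCs was 0.04 thinned and 0.05 at 1500 to 4000 UMIs. No paired analysis was possible because each group is 1 library. Egr3 and Egr2 rest on the fewest UMIs, and depth limits them most.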
